A study of Homo sapiens with 12 samples.

Results

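The 35 genes described here make the building blocks of RNA and DNA or carry nucleosides across the cell membrane. They were chosen by symbol from a list of enzymes of purine and pyrimidine synthesis, deoxynucleotide supply, folate steps and salvage and of 2 nucleoside transporters. Earlier results of these data were known when these genes and the lists set beside them were chosen. Each of the 35 symbols matched 1 of the 60675 genes in the deposited count tables. The genes were followed by RNA sequencing in 6 groups of 2 libraries. By their titles these came from LNCaP, an androgen-dependent prostate cancer line, or from LNCaP:C4-2 (C4-2), its castration-resistant derivative. Markers of the line in the libraries labelled LNCaP are described below. Each of the 6 groups received the synthetic androgen R1881 at 1 nM for 72 h in steroid-stripped medium, so no group lacked androgen. In C4-2 the groups were R1881 alone, R1881 with namoline at 50 µM, R1881 with TCE-5002, and R1881 with both inhibitors, called the combination. In the libraries labelled LNCaP there were R1881 alone and the combination. Namoline inhibits the lysine demethylase KDM1A and TCE-5002 is labelled as an inhibitor of KDM7A. The study states that TCE-5002 also acts on KDM7B (PHF8) and KDM2A. By its methods the cells with R1881 alone received the DMSO vehicle. The study's methods call the 2 libraries of a group biological replicates, and how their cultures were separated is not given in the sources used here.

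Purine nucleotides are built stepwise on a ribose phosphate supplied by the PRPS enzymes, and the shared product IMP is then split into the AMP and GMP branches. Pyrimidines are made as a ring first and joined to the ribose afterwards. Ribonucleotide reductase turns ribonucleotides into deoxynucleotides, thymidylate synthase makes the thymine nucleotide with a folate cofactor, and salvage kinases and phosphoribosyltransferases reuse nucleosides and bases that enter through equilibrative transporters. Cells that copy their DNA carry more of several of these transcripts, and the transporters SLC29A1 and SLC29A2 are also the route by which nucleoside drugs enter cells.

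The 12 libraries held between 14791602 and 20690819 counts in genes, and log2 levels of the 2 libraries of a group had Pearson's r between 0.983 and 0.989 across genes. The 2 C4-2 TCE-5002 libraries were farthest apart, and their difference followed the GC content of the transcripts, with Spearman's rho of -0.50 across genes. The libraries labelled LNCaP lacked part of the profile of a prostate luminal line. With R1881 alone, VIM, a mesenchymal filament, was at 641 and 733 CPM (counts scaled for library depth) in LNCaP-labelled libraries and at 2.62 and 2.28 CPM in C4-2, while CDH1, the epithelial cadherin, was at 44.6 and 39.6 and 949 and 1007 CPM. Of 7 mesenchymal markers 6 were called lower in C4-2 and 0 higher. Their summed level was 913.5 and 1008.5 CPM in LNCaP-labelled libraries and 32.3 and 33.1 CPM in C4-2. Of 13 luminal markers 11 were called higher in C4-2 and 0 lower. Among all genes tested, 24.3% were called higher in C4-2 and 26.2% lower. Yet KLK3 was at 397 and 355 CPM in LNCaP-labelled libraries and at 206 and 228 CPM in C4-2. In addition, the count column of LNCaP combination replicate 1 names namoline but not TCE-5002, whereas the sample's title names both. The group of that library was taken from its title, and the counts and the called values in LNCaP-labelled libraries are also given without it.

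In C4-2 each inhibitor alone raised most of these genes, and the combination raised few of them. The summed level of the 35 genes was 2651 and 2629 CPM in the libraries with R1881 alone, 3922 and 3499 CPM with TCE-5002, 4228 and 4512 CPM with namoline and 2658 and 2684 CPM with the combination. Both single-inhibitor groups lay above the other 2 groups without overlap, and the combination libraries sat beside those with R1881 alone. Across the LNCaP-labelled libraries the sum was 3836 and 4032 CPM with R1881 and 5710.1 and 5769.5 CPM with the combination, so there the combination libraries were the higher ones. A set of 19 genes of S phase, the period of DNA copying, moved in the same libraries, with 17 called higher with namoline (5.17% of all genes tested were), 8 with TCE-5002 (5.04% of all genes), and 3 higher and 1 lower with the combination (8.87% and 12.8% of all genes). Its summed level in C4-2 was 430.1 and 424 CPM with R1881 alone, 820.4 and 769 CPM with TCE-5002, 1367 and 1729 CPM with namoline and 639.6 and 586 CPM with the combination. For the line labelled LNCaP the S-phase sum was 3064 and 3127 CPM with R1881 and 3517 and 3492 CPM with the combination. The 13 luminal markers moved in these libraries too: their summed level in C4-2 was 4528 and 4729 CPM with R1881 alone, 6652 and 6625 CPM with TCE-5002, 5170.2 and 5572 CPM with namoline and 2716 and 2698 CPM with the combination. With R1881 it was 1079.7 and 1009 CPM in LNCaP-labelled libraries and with the combination 583 and 452 CPM. The part of either list in the changes of the nucleotide genes was not tested, and in bulk RNA a larger share of cells in S phase and more transcript per cell cannot be told apart.

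**Figure D1:**
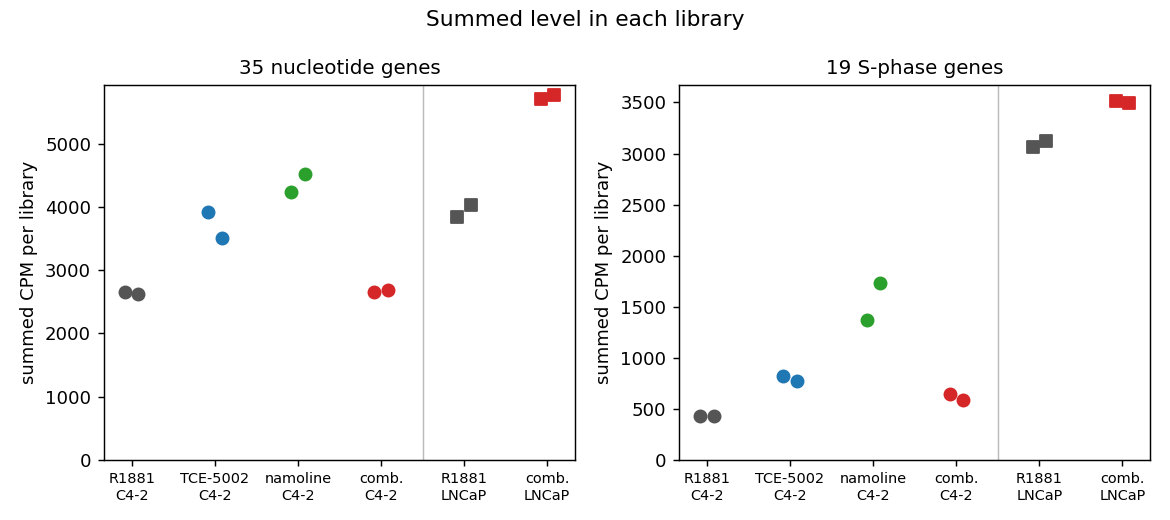
Summed CPM of the 35 nucleotide genes (left) and of 19 S-phase genes (right) on the vertical axis, with 1 point per library and the 6 groups along the horizontal axis (circles C4-2, squares libraries labelled LNCaP). In C4-2 the libraries with namoline or TCE-5002 lie above those with R1881 alone, and the combination libraries return to the level of R1881 alone on the left panel.

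Each comparison was tested across all genes by edgeR's quasi-likelihood method, with p-values adjusted by Benjamini-Hochberg, and a gene is called changed here when its adjusted p was under 0.05 and its change at least 2-fold. All 35 members were tested in each comparison. Because they were chosen with earlier results of these data known, the shares of all genes beside their counts are descriptive. With namoline, 11 of the 35 were called higher and 0 lower, where 12.1% of all genes tested were called, 5.17% higher and 6.88% lower. The median log2 fold change of the members was 0.78, against -0.00 over all genes tested. By adjusted p alone 28 members rose and 0 fell, where 18.7% of all genes rose and 16.3% fell. With TCE-5002, 4 members were called higher and 0 lower, where 11.8% of all genes were called, 5.04% higher and 6.80% lower, and the median of the members was 0.48. By adjusted p alone 24 members rose with TCE-5002 and 0 fell, where 19.9% of all genes rose and 16.7% fell. With the combination, 1 member was called higher and 1 lower, where 21.7% of all genes were called, 8.87% higher and 12.8% lower, and the median of the members was 0.05 against -0.03 over all genes. By adjusted p alone 5 members rose with the combination and 9 fell, where 24.8% of all genes rose and 25.6% fell. These 3 comparisons share the R1881 libraries as controls, so their values are given side by side. Leaving out each C4-2 library in turn gave 9 to 12 calls for namoline, 3 to 7 for TCE-5002 and 2 for the combination. After a correction for GC content (a smooth offset per library) 9 were called with namoline, without DCTPP1 and TK1, and 6 with TCE-5002, without SLC29A2 and with CTPS1, RRM2 and DCK added. The TCE-5002 count was at 7 without C4-2 R1881 replicate 1 and again at 7 without C4-2 TCE-5002 replicate 2.

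SLC29A1, the main equilibrative nucleoside transporter (also called ENT1), was the 1 member called higher in all 3 inhibitor groups of C4-2. It was at 6.51 and 6.89 CPM with R1881 alone, 34.8 and 39.95 with TCE-5002, 43.8 and 44.7 with namoline and 29.9 and 31.2 with the combination. The 2 libraries with R1881 alone were the lowest of the 8 by a wide margin, and no inhibitor library overlapped them. Against R1881 alone the log2 fold change was 2.71 ± 0.14 (SE) with namoline (adjusted p = 1.6e-08), 2.48 ± 0.14 with TCE-5002 (adjusted p = 1.6e-07) and 2.16 ± 0.14 with the combination (adjusted p = 5.1e-08). In fold terms these are 6.54, 5.59 and 4.48. The combination libraries were nevertheless below both single-inhibitor groups, by -0.54 ± 0.13 against namoline and -0.32 ± 0.13 against TCE-5002 on the log2 scale (adjusted p = 0.0021 and 0.046). When the processing was varied, these values ran from -0.55 to -0.39 and from -0.40 to -0.15. Among LNCaP-labelled libraries, SLC29A1 was at 56.1 and 54.1 CPM with R1881 and 73.2 and 69.9 with the combination, a rise of 0.44 ± 0.11 (adjusted p = 0.00091). Every inhibitor library of C4-2 remained below the R1881 libraries labelled LNCaP.

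SLC29A2, the second equilibrative transporter (ENT2), passed the test with each single inhibitor and not with the combination. Its libraries were at 28.03 and 32.1 CPM with R1881 alone, 60.02 and 82.2 with TCE-5002, 93.03 and 102 with namoline and 41.5 and 35.01 with the combination. The namoline and TCE-5002 libraries were all above the other 4 C4-2 libraries, and the combination libraries lay just above those with R1881 alone. The log2 fold change was 1.68 ± 0.16 with namoline (adjusted p = 1.9e-06), 1.25 ± 0.15 with TCE-5002 (adjusted p = 3.6e-05) and 0.33 ± 0.16 with the combination (adjusted p = 0.094). After the GC correction the TCE-5002 value was 0.97 and fell under 2-fold. Within the LNCaP-labelled groups it was at 31.5 and 24.5 CPM with R1881 and 39.2 and 34.4 with the combination. Of the exon length of SLC29A2, 10.3% overlaps an antisense transcript, B4GAT1-DT, and the counting did not use strand.

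The 250 bases before the annotated start of SLC29A1 lie partly inside the gene as the count files annotate it, so only the 140 bases upstream of that gene are shown (chr6:44219365-44219504, GRCh38, plus strand, RefSeq). They are printed because of that pattern, and the capitals mark a CACGTG word (E-box), the binding word of MYC-type factors.
SLC29A1: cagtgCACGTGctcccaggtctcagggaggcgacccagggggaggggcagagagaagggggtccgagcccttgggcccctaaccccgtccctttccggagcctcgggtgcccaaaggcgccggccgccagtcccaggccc

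Of the 8 genes of deoxynucleotide supply, RRM2, TYMS, RRM1 and DCTPP1 were called higher with namoline, where 5.17% of all genes were. RRM2, the small subunit that is made in S phase, was at 17.7 and 10.7 CPM with R1881 alone, 28.7 and 27.3 with TCE-5002, 89.3 and 123 with namoline and 18.6 and 13.3 with the combination. The namoline libraries stood far above the other 6, and the combination libraries overlapped with those of R1881 alone. The log2 fold change of RRM2 was 2.87 ± 0.22 with namoline (adjusted p = 3.6e-07), 0.96 ± 0.22 with TCE-5002 (adjusted p = 0.0036) and 0.12 ± 0.23 with the combination (adjusted p = 0.67). In LNCaP-labelled libraries, where RRM2 started much higher, it was at 227 and 199.9 CPM with R1881 and 113 and 107 with the combination, a fall of -0.90 ± 0.10 (adjusted p = 8.7e-09).

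RRM1, the large subunit, did not follow its partner under the combination. It was at 69.6 and 66.5 CPM with R1881 alone, 119 and 93.5 with TCE-5002, 138 and 158 with namoline and 126 and 131 with the combination. All 6 inhibitor libraries were above both R1881 libraries. RRM1 rose by 1.11 ± 0.13 with namoline (adjusted p = 1.6e-05), by 0.65 ± 0.13 with TCE-5002 (adjusted p = 0.0013) and by 0.89 ± 0.13 with the combination (adjusted p = 5.4e-05) on the log2 scale. Without C4-2 namoline replicate 2 the namoline value was 0.99, just under 2-fold. Across the LNCaP-labelled libraries it was at 227 and 259 CPM with R1881 and 364 and 387 with the combination, so RRM1 rose there by 0.69 ± 0.11 (adjusted p = 2e-06) while RRM2 fell. RRM2B, the alternative small subunit induced by p53 and no member of the list, is named after its values were seen: it was at 69.6 and 63.5 CPM with R1881 alone, 83.1 and 64.7 with TCE-5002, 100.1 and 87.96 with namoline and 144 and 148 with the combination, with a log2 fold change of 1.11 ± 0.13 under the combination (adjusted p = 9.7e-06).

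TYMS, thymidylate synthase, was at 16.8 and 14.4 CPM with R1881 alone, 28.4 and 27.6 with TCE-5002, 52.5 and 70.1 with namoline and 27.7 and 24.7 with the combination. Each inhibitor group lay above R1881 alone, namoline farthest. Its log2 fold change was 1.95 ± 0.16 with namoline (adjusted p = 5.2e-07), 0.84 ± 0.16 with TCE-5002 (adjusted p = 0.0009) and 0.72 ± 0.16 with the combination (adjusted p = 0.0017). For the line labelled LNCaP it was at 117 and 133 CPM with R1881 and 143 and 151 with the combination. The antisense genes ENOSF1 and TYMSOS overlap 18.8% and 7.41% of the exon length of TYMS, and over the 12 libraries ENOSF1 held 17173 counts against 15349 for TYMS, so unstranded reads of the shared part cannot be attributed by strand.

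DCTPP1, which hydrolyses dCTP and modified relatives of it, was at 28.1 and 29.1 CPM with R1881 alone, 54.4 and 55.6 with TCE-5002, 64.8 and 64.1 with namoline and 30.7 and 27.1 with the combination. Every single-inhibitor library was well above the other C4-2 libraries, with a log2 fold change of 1.16 ± 0.12 with namoline (adjusted p = 5.9e-06), 0.94 ± 0.12 with TCE-5002 and -0.01 ± 0.12 with the combination. After the GC correction the namoline value was just under 2-fold and the call was lost. Among LNCaP-labelled libraries it was at 71.8 and 67.1 CPM with R1881 and 77.5 and 63.9 with the combination. Another gene, ZNF771 on the opposite strand, covers 42.1% of the exon length of DCTPP1 and held 2654 counts in all against 11822.

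NME1, a nucleoside diphosphate kinase that makes triphosphates, was at 34.9 and 31.4 CPM with R1881 alone, 76.9 and 64.9 with TCE-5002, 64.9 and 63.1 with namoline and 39.99 and 37.5 with the combination. Here TCE-5002 gave the larger value, 1.10 ± 0.13 (adjusted p = 2e-05), against 0.93 ± 0.13 with namoline (adjusted p = 6.3e-05) and 0.20 ± 0.13 with the combination (adjusted p = 0.21). Without C4-2 TCE-5002 replicate 1 the TCE-5002 value was 0.96. Within the LNCaP-labelled groups, NME1 was at 32.2 and 36.5 CPM with R1881 and 62.5 and 65.1 with the combination. The read-through gene NME1-NME2 shares 18.6% of its exon length on the same strand.

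DUT, the dUTPase that keeps uracil out of DNA, and SAMHD1, which degrades deoxynucleotides, had values above 0 but under 2-fold with single inhibitors and fell under the combination. DUT was at 71.01 and 66.1 CPM with R1881 alone, 96.1 and 91.8 with TCE-5002, 77.5 and 79.2 with namoline and 39.9 and 40.5 with the combination. SAMHD1 was at 47.6 and 52.6 CPM with R1881 alone, 66.5 and 61.1 with TCE-5002, 74.9 and 77.9 with namoline and 29.5 and 27.6 with the combination. For both genes the 2 combination libraries were the lowest of the 8, and the log2 fold changes were -0.80 ± 0.11 for DUT and -0.84 ± 0.12 for SAMHD1 against R1881 alone (adjusted p = 4.1e-05 and 5.3e-05), short of 2-fold. In LNCaP-labelled libraries both went the other way: DUT was at 44.5 and 46.99 CPM with R1881 and 93.1 and 110.0 with the combination. SAMHD1 was there at 47.3 and 47.7 CPM with R1881 and 100.0 and 105 with the combination. No combination library overlapped with R1881 in either gene, and the log2 fold changes were 1.21 ± 0.11 and 1.17 ± 0.11 (adjusted p = 6.9e-11 and 5.7e-11). The SAMHD1 value was 0.97 after the GC correction. DTYMK, thymidylate kinase, was called in none of the 4 comparisons against R1881 and had a log2 fold change of -0.52 ± 0.14 under the combination in C4-2 (adjusted p = 0.0071). The noncoding DUT-AS1 overlaps 14.5% of the exon length of DUT.

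TK1, the cytosolic thymidine kinase of dividing cells, showed the widest swing of the salvage genes. It was at 44.9 and 42.7 CPM with R1881 alone, 48.98 and 70.2 with TCE-5002, 86.8 and 120.4 with namoline and 18.9 and 13.3 with the combination. The namoline libraries were the highest of the 8 and the combination libraries the lowest, below every R1881 library. Against R1881 alone the log2 fold change was 1.23 ± 0.19 with namoline (adjusted p = 0.00022), 0.44 ± 0.19 with TCE-5002 (adjusted p = 0.083) and -1.46 ± 0.20 with the combination (adjusted p = 4.5e-05), and the combination was -2.69 ± 0.21 against namoline (adjusted p = 1.1e-07). The rise with namoline was under 2-fold after the GC correction, at 0.97, and without C4-2 namoline replicate 2, at 0.96. Across the LNCaP-labelled libraries it was at 60.7 and 65.5 CPM with R1881 and 53.9 and 45.1 with the combination, a value of -0.29 ± 0.11 (adjusted p = 0.029) that turned to 0.12 after the GC correction. The 221 bases upstream of TK1 (chr17:78187234-78187454, GRCh38, minus strand, RefSeq) are shown because TK1 was the 1 member called lower with the combination, and they hold none of the E-box, E2F, CCAAT or TGATGNAA words.
TK1: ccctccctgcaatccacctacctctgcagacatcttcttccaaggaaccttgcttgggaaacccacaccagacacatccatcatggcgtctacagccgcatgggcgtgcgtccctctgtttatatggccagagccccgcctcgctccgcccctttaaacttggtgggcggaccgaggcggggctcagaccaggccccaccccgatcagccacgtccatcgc

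HPRT1, which salvages hypoxanthine and guanine, was at 22.7 and 16.5 CPM with R1881 alone, 54.3 and 44.2 with TCE-5002, 48.97 and 45.7 with namoline and 26.8 and 25.05 with the combination. Every single-inhibitor library was above all other C4-2 libraries. The log2 fold change was 1.25 ± 0.16 with namoline (adjusted p = 3.9e-05), 1.32 ± 0.16 with TCE-5002 (adjusted p = 3e-05) and 0.37 ± 0.16 with the combination (adjusted p = 0.07). For the line labelled LNCaP it was at 99.3 and 114 CPM with R1881 and 152 and 172 with the combination, already far above C4-2 with R1881 alone.

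DCK, deoxycytidine kinase, which also activates several nucleoside drugs, was at 18.1 and 14.8 CPM with R1881 alone, 33.6 and 28.6 with TCE-5002, 28.5 and 29.5 with namoline and 21.1 and 20.4 with the combination. UCK2, the uridine-cytidine kinase, was at 72.9 and 73.8 CPM with R1881 alone, 103 and 93.9 with TCE-5002, 126 and 142 with namoline and 88.00 and 86.98 with the combination. APRT, which salvages adenine, was at 79.7 and 86.9 CPM with R1881 alone, 126 and 159 with TCE-5002, 119 and 129.8 with namoline and 65.7 and 73.3 with the combination. In these 3 genes the 4 single-inhibitor libraries were above the R1881 libraries, by less than 2-fold, and the combination libraries were below every single-inhibitor library. Their log2 fold changes with namoline were 0.80, 0.85 and 0.56, and with TCE-5002 0.92, 0.42 and 0.77, all with adjusted p under 0.05. Among LNCaP-labelled libraries, DCK was at 37.96 and 39.4 CPM with R1881 and 45.2 and 52.7 with the combination. There UCK2 was at 124 and 122 CPM with R1881 and 143 and 131 with the combination. APRT was at 70.3 and 69.4 CPM with R1881 and 109 and 91.1 with the combination in the same libraries. ADK, adenosine kinase, passed the adjusted p in none of the 3 C4-2 comparisons against R1881, with log2 fold changes of -0.05 ± 0.15, 0.28 ± 0.15 and -0.01 ± 0.15 for namoline, TCE-5002 and the combination.

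Both folate genes followed the same course in C4-2. MTHFD1, the cytosolic enzyme that makes the one-carbon units for purines, was at 89.6 and 86.4 CPM with R1881 alone, 188 and 158 with TCE-5002, 204 and 234 with namoline and 84.4 and 78.03 with the combination. SHMT1, the cytosolic serine hydroxymethyltransferase, was at 66.3 and 63.99 CPM with R1881 alone, 104 and 106 with TCE-5002, 112 and 123 with namoline and 41.9 and 43.4 with the combination. Single-inhibitor libraries were all above R1881 alone, and the combination libraries were the lowest of the 8 for both genes. MTHFD1 rose by 1.30 ± 0.12 with namoline (adjusted p = 2.1e-06) and by 0.98 ± 0.12 with TCE-5002 (adjusted p = 3.4e-05) on the log2 scale. With the combination its value was -0.14 ± 0.12 (adjusted p = 0.35), while SHMT1 fell by 0.64 ± 0.11 (adjusted p = 0.00026). Within the LNCaP-labelled groups, MTHFD1 was at 164 and 175 CPM with R1881 and 405 and 386 with the combination. SHMT1 was at 46.1 and 46.4 CPM with R1881 and 43.6 and 42.4 with the combination there. MTHFD1 therefore rose by 1.28 ± 0.11 (adjusted p = 7.6e-12) in LNCaP-labelled libraries, and SHMT1 had a value of -0.05 ± 0.11 (adjusted p = 0.74).

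Of the 5 pyrimidine ring and CTP genes, CTPS1, which makes CTP from UTP, had the largest values with namoline and with TCE-5002 in C4-2. It was at 58.7 and 60.6 CPM with R1881 alone, 131 and 107 with TCE-5002, 139 and 156 with namoline and 67.8 and 62.4 with the combination. Every single-inhibitor library was far above the R1881 libraries, and the combination libraries came back close to them. Its log2 fold change was 1.29 ± 0.12 with namoline (adjusted p = 2.8e-06), 0.99 ± 0.12 with TCE-5002 (adjusted p = 3.6e-05), just under 2-fold, and 0.10 ± 0.12 with the combination (adjusted p = 0.52). CAD, which carries out the first steps of the pathway, was at 61.8 and 68.3 CPM with R1881 alone, 71.5 and 87.2 with TCE-5002, 107 and 135 with namoline and 70.8 and 70.8 with the combination. It had a log2 fold change of 0.88 ± 0.13 with namoline (adjusted p = 0.00017) and 0.29 ± 0.13 with TCE-5002 (adjusted p = 0.11). In LNCaP-labelled libraries, CTPS1 was at 261 and 273 CPM with R1881 and 328 and 310.4 with the combination. CAD was at 219 and 221 CPM with R1881 and 328 and 288 with the combination in those libraries, so both began there at a multiple of the C4-2 level. The mitochondrial step DHODH, the UMP-forming step UMPS and the kinase CMPK1 had log2 fold changes between 0.30 and 0.75 with namoline, between 0.25 and 0.54 with TCE-5002 and between -0.01 and 0.18 with the combination.

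**Figure D2:**
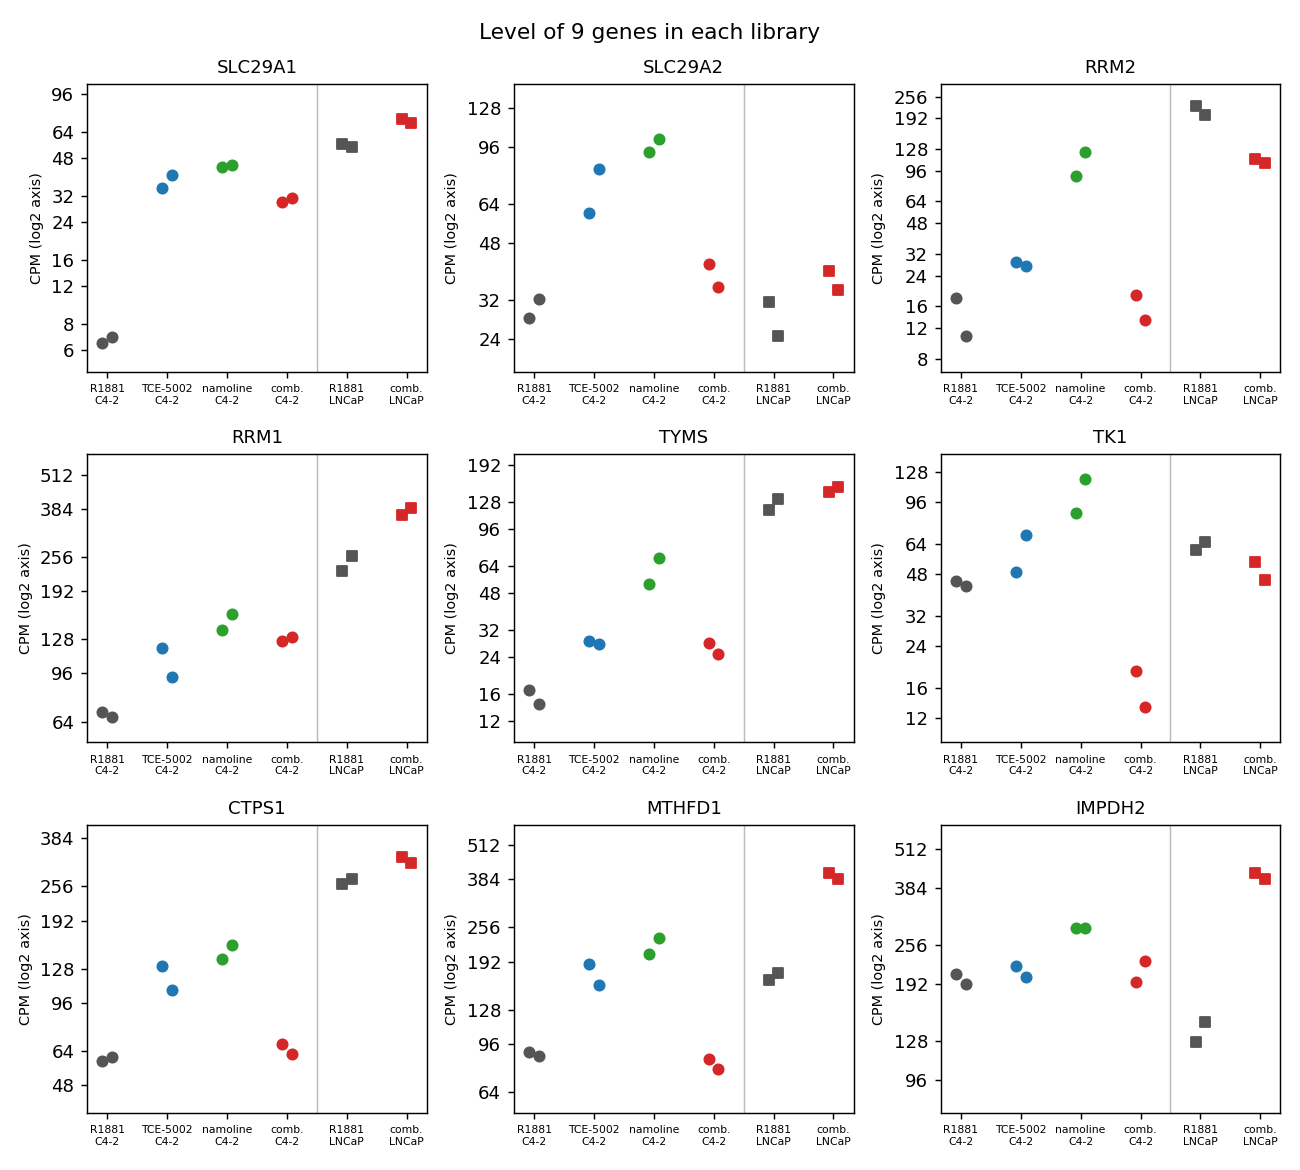
CPM of 9 members on a log2 axis, with 1 point per library and the 6 groups along the horizontal axis (circles C4-2, squares libraries labelled LNCaP). SLC29A1 stays high in all 3 inhibitor groups of C4-2, RRM2, CTPS1, MTHFD1 and SLC29A2 return towards R1881 alone with the combination, TK1 drops below it, and IMPDH2 rises with the combination in LNCaP-labelled libraries only.

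Of the 6 enzymes of the purine ring, 4 rose with namoline and 4 with TCE-5002 by adjusted p. Among all genes 18.7% and 19.9% did so. PAICS was the 1 called, with namoline, where 5.17% of all genes were called higher. PAICS, which joins 2 middle steps of the pathway in 1 protein, was at 177 and 189 CPM with R1881 alone, 349.7 and 285 with TCE-5002, 375 and 403 with namoline and 190.0 and 186 with the combination. It was called with namoline, at 1.07 ± 0.12 (adjusted p = 9.7e-06), had a value of 0.79 ± 0.12 with TCE-5002 (adjusted p = 0.00015) and of 0.01 ± 0.12 with the combination (adjusted p = 0.94). PPAT, the committing enzyme of the pathway, starts on the opposite strand 125 bases away and moved less, at 77.3 and 65.1 CPM with R1881 alone, 96.4 and 64.8 with TCE-5002, 100.0 and 102 with namoline and 95.4 and 88.9 with the combination. Its log2 fold changes were 0.49 ± 0.16, 0.18 ± 0.16 and 0.35 ± 0.16 for namoline, TCE-5002 and the combination (adjusted p = 0.025, 0.4 and 0.079). The 125 bases between the 2 divergent starts (chr4:56435616-56435740, GRCh38, plus strand, RefSeq) are shown because both genes are read from this stretch and gave different values, and they hold none of the E-box, E2F, CCAAT or TGATGNAA words.
PPAT-PAICS: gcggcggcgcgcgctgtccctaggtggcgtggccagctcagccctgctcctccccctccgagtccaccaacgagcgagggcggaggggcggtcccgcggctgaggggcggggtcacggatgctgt

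PFAS, a glutamine-using step, was at 44.8 and 48.4 CPM with R1881 alone, 58.4 and 71.3 with TCE-5002, 77.5 and 86.8 with namoline and 27.9 and 29.9 with the combination. Its combination libraries were the lowest of the 8, at -0.71 ± 0.13 on the log2 scale against R1881 alone (adjusted p = 0.00044), and -1.52 ± 0.13 against namoline (adjusted p = 3.1e-07). GART, which catalyses several steps of the ring, was at 165 and 165 CPM with R1881 alone, 214 and 159 with TCE-5002, 192 and 196 with namoline and 107 and 113 with the combination. Like PFAS it was lowest with the combination, at -0.61 ± 0.13 (adjusted p = 0.0013), while its namoline and TCE-5002 values were 0.22 ± 0.13 and 0.18 ± 0.13 (adjusted p = 0.21 and 0.31). ATIC, which closes the ring to IMP, was at 165 and 168 CPM with R1881 alone, 273 and 229 with TCE-5002, 267 and 244 with namoline and 176 and 176 with the combination. Single inhibitors raised ATIC by 0.61 and 0.60 and the combination value was 0.06 ± 0.11 (adjusted p = 0.7). ADSL, which acts both in the ring and in the AMP branch, was at 82.8 and 82.8 CPM with R1881 alone, 113 and 95.5 with TCE-5002, 101 and 94.9 with namoline and 68.00 and 73.3 with the combination. Its values were 0.23 ± 0.11, 0.33 ± 0.11 and -0.25 ± 0.12 for namoline, TCE-5002 and the combination, all under 2-fold.

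Across the LNCaP-labelled libraries most purine ring genes were higher with the combination. PAICS was at 273 and 300.3 CPM with R1881 and 578 and 629 with the combination. ADSL was at 72.8 and 80.5 CPM with R1881 and 159 and 157 with the combination. GART was at 321 and 326 CPM with R1881 and 419 and 450.4 with the combination. These 3 genes had no overlap between the groups. ATIC, at 128 and 150.5 CPM with R1881 and 229 and 233 with the combination, had none either. The same held for PPAT, at 103 and 113 CPM with R1881 and 149 and 162 with the combination. PFAS, at 99.3 and 92.2 CPM with R1881 and 104 and 88.8 with the combination, did overlap. The share of all genes without such overlap was not counted. Against R1881 alone the log2 fold change was 1.13 ± 0.11 for PAICS (adjusted p = 2.4e-10), 1.10 ± 0.10 for ADSL (adjusted p = 1.3e-10) and 0.48 ± 0.11 for GART (adjusted p = 0.00024). The PAICS value was 0.92 after the GC correction.

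PRPS1 and PRPS2, which supply the activated ribose, were both above R1881 alone with namoline and below it with the combination in C4-2. PRPS1 was at 90.97 and 86.4 CPM with R1881 alone, 119 and 99.4 with TCE-5002, 145 and 147 with namoline and 64.6 and 66.6 with the combination. PRPS2 was at 40.3 and 41.1 CPM with R1881 alone, 67.4 and 58.1 with TCE-5002, 52.3 and 58.3 with namoline and 30.00 and 33.8 with the combination. The combination libraries were the lowest of the 8 in both genes, with log2 fold changes of -0.46 ± 0.12 and -0.38 ± 0.13 against R1881 alone (adjusted p = 0.0041 and 0.023). For the line labelled LNCaP the 2 parted. PRPS1 was at 124 and 128 CPM with R1881 and 213 and 222 with the combination. PRPS2 was at 153 and 157 CPM with R1881 and 101 and 108 with the combination. The log2 fold changes there were 0.85 ± 0.10 and -0.51 ± 0.10 (adjusted p = 1.9e-08 and 7.5e-05).

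The AMP and GMP branches held the largest rise in LNCaP-labelled libraries. IMPDH2, the rate-limiting enzyme of GMP synthesis in dividing cells, was at 127 and 146 CPM with R1881 and 428 and 409.8 with the combination. That is a rise of 1.68 ± 0.11 on the log2 scale (adjusted p = 4.6e-14), 3.197-fold, and the groups were far apart. In C4-2 the same gene was at 206 and 193 CPM with R1881 alone, 219 and 203 with TCE-5002, 289 and 289 with namoline and 195 and 227 with the combination, with only the namoline value past the adjusted p, at 0.52 ± 0.11 (adjusted p = 0.0024). The sister enzyme IMPDH1 went the opposite way in LNCaP-labelled libraries, at 53.7 and 51.2 CPM with R1881 and 32.8 and 29.9 with the combination, a value of -0.69 ± 0.12 (adjusted p = 8.6e-06). In C4-2, IMPDH1 was at 113 and 129 CPM with R1881 alone, 137 and 184 with TCE-5002, 182 and 237 with namoline and 109 and 107 with the combination, with its highest mean under namoline at 0.78 ± 0.15 (adjusted p = 0.0011).

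ADSS2, which starts the AMP branch, was at 45.1 and 44.6 CPM with R1881 alone, 64.1 and 47.2 with TCE-5002, 73.5 and 71.1 with namoline and 63.7 and 70.4 with the combination. It was at 38.98 and 43.99 CPM with R1881 and 79.7 and 90.4 with the combination in LNCaP-labelled libraries, with a log2 fold change of 1.09 ± 0.11 there (adjusted p = 8.1e-10) and of 0.55 ± 0.14 with the combination in C4-2 (adjusted p = 0.004). Among LNCaP-labelled libraries the value was 0.82 after the GC correction and 1.00 without LNCaP combination replicate 2, both under 2-fold. GMPS, the last step to GMP, stood apart from the other members in C4-2. Its log2 fold changes were -0.08 ± 0.13 with namoline, -0.20 ± 0.13 with TCE-5002 and 0.40 ± 0.13 with the combination (adjusted p = 0.66, 0.24 and 0.017), and it rose with the combination.

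Whether the inhibitors together gave what their separate effects add up to was tested by an interaction term: the log2 change with both inhibitors less the sum of the log2 changes with each, so that 0 means additive effects. For 24 of the 35 members this term was called below 0 and for 0 above, where 35.3% of all genes were called, 18.6% below 0 and 16.7% above. By adjusted p alone 31 members were below 0 and GMPS, at 0.67 ± 0.18, was above, where 27.9% of all genes were below and 25.6% above. The median of the members was -1.43 against -0.01 over all genes tested, and that of the 19 S-phase genes was -2.46. The values farthest from 0 were those of RRM2 at -3.70 ± 0.31, TK1 at -3.13 ± 0.28, SLC29A1 at -3.03 ± 0.19, SLC29A2 at -2.60 ± 0.22 and MTHFD1 at -2.42 ± 0.17. PPAT, ADSS2 and ADK did not pass the adjusted p, with values of -0.32 ± 0.22, -0.43 ± 0.19 and -0.24 ± 0.21. Leaving out each C4-2 library in turn gave between 21 and 25 calls. The term is made from the same libraries as the comparisons above, so it is not a second piece of evidence for them.

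With both inhibitors most members were lower than with either alone. Against namoline alone, 12 members were called lower with the combination and 0 higher, where 27.5% of all genes were called, 14.7% lower and 12.8% higher, with a median of -0.83 against -0.04 over all genes. By adjusted p 29 members fell and 1 rose, where 29.0% of all genes fell and 26.9% rose. Against TCE-5002 alone, 8 were called lower and 0 higher, where 26.1% of all genes were called, 14.3% lower and 11.7% higher, and the median was -0.61. By adjusted p 25 fell and 1 rose, where 28.7% of all genes fell and 26.4% rose. The 8 were PRPS2, PFAS, DUT, SAMHD1, MTHFD1, SHMT1, TK1 and APRT. GMPS was the member that was higher in both comparisons by adjusted p, at 0.48 ± 0.13 and 0.59 ± 0.13. Of the 13 luminal markers 9 were called lower in each of these 2 comparisons, with medians of -1.89 and -2.15, and 9 were called below 0 in the interaction, with a median of -2.45. Their part in the members' values was not tested. After the GC correction 5 of the 8 calls against TCE-5002 remained, without PRPS2, PFAS and APRT.

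**Figure D3:**
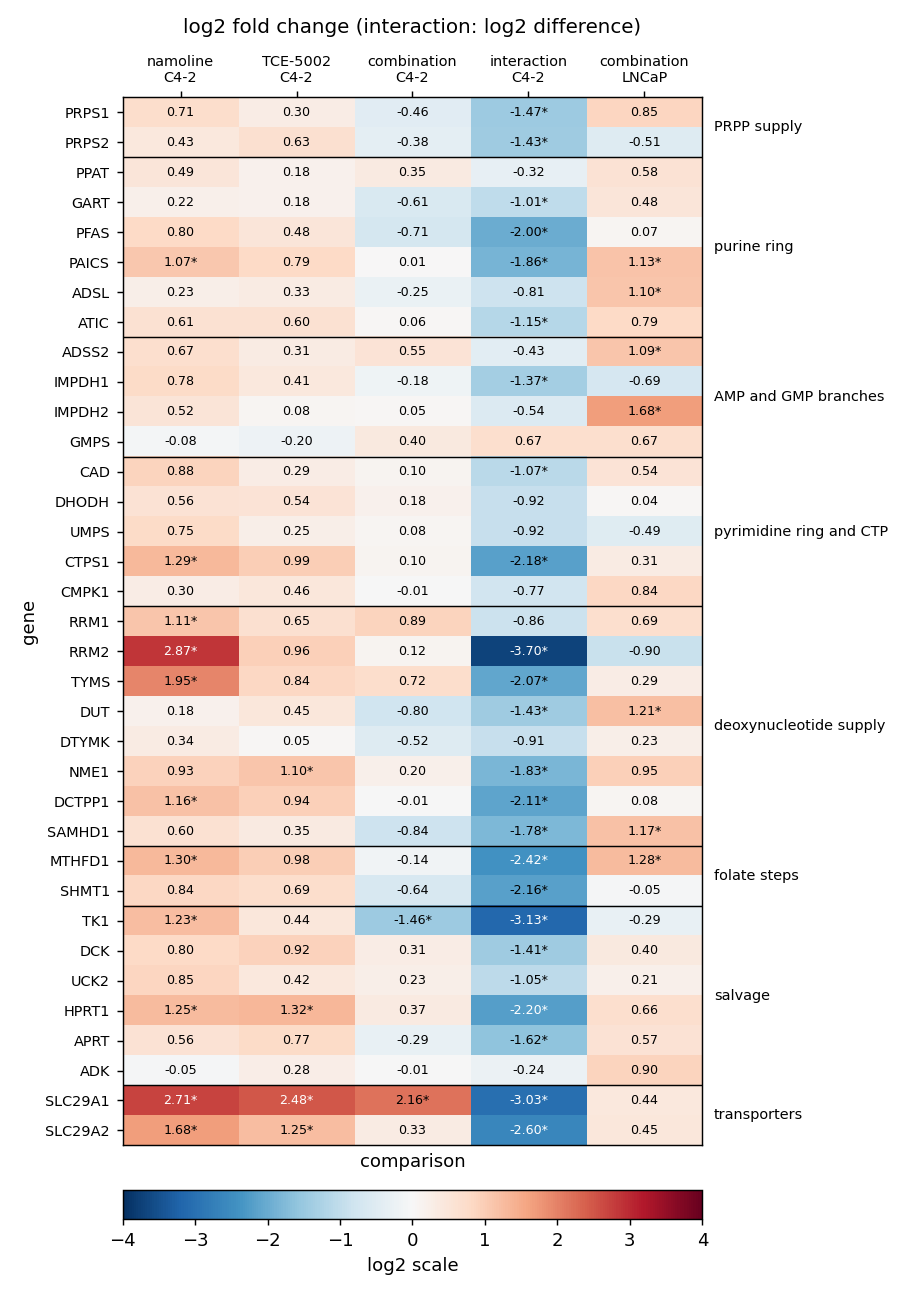
Log2 fold changes of the 35 members, in rows grouped by role, in 5 comparisons in columns, with the interaction as a log2 difference. Red is higher and blue lower, and an asterisk marks an adjusted p under 0.05 with a change of at least 2-fold. The namoline and TCE-5002 columns are red almost throughout, the combination column of C4-2 is pale apart from SLC29A1 and TK1, and the interaction column is blue apart from GMPS.

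Genes of the wider pathway were described from lists of 46 further nucleotide enzymes and transporters, 20 folate and one-carbon genes and 6 regulators. Of the further nucleotide genes 39 were tested, and 2 were called higher and 3 lower with namoline, 5 higher and 1 lower with TCE-5002, and 4 higher and 2 lower with the combination. In the same order these are 12.8%, 15.4% and 15.4% of the 39, where 12.1%, 11.8% and 21.7% of all genes were called. PNP, the phosphorylase that splits purine nucleosides, was called higher in each inhibitor group of C4-2. Its libraries were at 11.3 and 12.2 CPM with R1881 alone, 37.9 and 33.7 with TCE-5002, 56.7 and 52.9 with namoline and 56.7 and 60.6 with the combination. UPP1, the matching phosphorylase for uridine, was at 13.6 and 14.3 CPM with R1881 alone, 11.6 and 9.76 with TCE-5002, 6.63 and 4.86 with namoline and 97.8 and 88.9 with the combination, a log2 fold change of 2.72 ± 0.15 with the combination (adjusted p = 1.3e-08) and of -1.29 ± 0.17 with namoline (adjusted p = 5.7e-05). SLC29A4, a further transporter of the same family, was at 2.95 and 3.77 CPM with R1881 alone, 8.501 and 10.99 with TCE-5002, 3.67 and 3.300 with namoline and 13.98 and 16.8 with the combination, and its value with the combination was 2.18 ± 0.21 (adjusted p = 1.6e-06). ADSS1, the muscle-type relative of ADSS2, had a value of 1.04 ± 0.17 with TCE-5002 (adjusted p = 0.00036).

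The folate and one-carbon list went both ways. Of its 19 tested genes 3 were called higher and 3 lower with namoline, 0 higher and 3 lower with TCE-5002, and 2 higher and 6 lower with the combination, against the shares of all genes given above. By adjusted p alone 6 rose and 8 fell with namoline, 3 rose and 6 fell with TCE-5002 and 4 rose and 8 fell with the combination, and the medians were -0.13, -0.27 and -0.14. MTHFD2, the mitochondrial folate enzyme, was at 488 and 464 CPM with R1881 alone, 220.3 and 179 with TCE-5002, 169 and 154 with namoline and 209.6 and 219 with the combination. PSAT1, of serine synthesis, was at 779 and 808 CPM with R1881 alone, 399 and 336 with TCE-5002, 323 and 259 with namoline and 155 and 164 with the combination. Every inhibitor library was below the R1881 libraries in both genes, in contrast to MTHFD1 and SHMT1 under the single inhibitors. PSPH, the last step of serine synthesis, was lower with the combination, at -2.25 ± 0.12 (adjusted p = 5.8e-09). SLC19A1, the folate carrier, was at 20.2 and 19.2 CPM with R1881 alone, 29.6 and 46.1 with TCE-5002, 49.6 and 62.7 with namoline and 11.4 and 11.4 with the combination, and at 153 and 133 CPM with R1881 and 56.4 and 40.4 with the combination in LNCaP-labelled libraries, so that it was called higher with namoline in C4-2 (1.49 ± 0.18) and lower with the combination in LNCaP-labelled libraries (-1.51 ± 0.12).

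Of the 6 regulators 3 were called higher and 1 lower with namoline, where 5.17% and 6.88% of all genes were. With TCE-5002, 3 were called higher and 0 lower, where 5.04% and 6.80% of all genes were. With the combination 0 were called higher and 1 (MYC) lower, where 8.87% and 12.8% of all genes were. E2F1, a driver of S-phase genes, was at 10.3 and 8.71 CPM with R1881 alone, 28.5 and 34.6 with TCE-5002, 46.8 and 68.3 with namoline and 11.9 and 11.5 with the combination. E2F2, its relative, was at 1.92 and 1.496 CPM with R1881 alone, 6.89 and 7.08 with TCE-5002, 14.2 and 19.1 with namoline and 3.01 and 2.69 with the combination. MYC, which binds E-boxes of many nucleotide genes, was at 86.8 and 96.1 CPM with R1881 alone, 183 and 187 with TCE-5002, 194 and 215 with namoline and 45.7 and 44.4 with the combination. All 3 were above R1881 alone in each single-inhibitor library, and with the combination E2F1 had a value of 0.27 ± 0.20 (adjusted p = 0.27), E2F2 of 0.69 ± 0.27 (adjusted p = 0.042) and MYC of -1.04 ± 0.11 (adjusted p = 4.1e-06). ATF4, a regulator of amino acid and one-carbon genes, was the 1 called lower with namoline: it was at 723 and 754 CPM with R1881 alone, 417 and 457 with TCE-5002, 334 and 301 with namoline and 488 and 543 with the combination. All its inhibitor libraries were below R1881 alone, with log2 fold changes of -1.23 ± 0.11, -0.75 ± 0.11 and -0.54 ± 0.11 for namoline, TCE-5002 and the combination (adjusted p = 2e-06, 0.00016 and 0.0011). The part of these regulators in the changes of the members was not tested.

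Within the LNCaP-labelled groups the combination raised 7 members past 2-fold (PAICS, ADSL, ADSS2, IMPDH2, DUT, SAMHD1 and MTHFD1) and lowered 0, where 18.7% of all genes tested were called, 7.44% higher and 11.3% lower. The median of the members was 0.54 against -0.00 over all genes. By adjusted p alone 24 rose and 5 fell, where 28.0% of all genes rose and 28.2% fell, and those that fell were PRPS2, IMPDH1, UMPS, RRM2 and TK1. The 19 S-phase genes had a median of 0.31 in the same comparison, with 2 called higher and 2 lower. Without LNCaP combination replicate 1, whose count column names namoline alone, the same 7 were called and 24 rose and 5 fell by adjusted p. The log2 values without it were 1.19 for PAICS, 1.09 for ADSL, 1.18 for ADSS2, 1.64 for IMPDH2, 1.32 for DUT, 1.20 for SAMHD1 and 1.24 for MTHFD1. After the GC correction 5 were called higher and 1 lower: PAICS, ADSS2 and SAMHD1 were no longer called, APRT was, and RRM2 was called lower. From the wider lists, TK2, the mitochondrial thymidine kinase, was at 98.3 and 81.8 CPM with R1881 and 18.7 and 19.2 with the combination. UCK1, a uridine kinase, was at 124 and 108 CPM with R1881 and 55.4 and 49.2 with the combination. Both were lower in each combination library, by -2.19 ± 0.12 and -1.09 ± 0.11 on the log2 scale (adjusted p = 1.3e-15 and 4.4e-10). AK1 and AK6, adenylate kinases, had values of 1.17 ± 0.17 and 1.04 ± 0.13 (adjusted p = 8.3e-07 and 2.9e-08).

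The difference between the combination effects in the 2 lines was tested directly. The effect in C4-2 was called lower than that in LNCaP-labelled libraries for 9 members and higher for 1, where 25.3% of all genes were called, 13.9% lower and 11.4% higher. The 10 are 28.6% of the members, close to the share of all genes. At adjusted p alone it was lower for 20 and higher for 5, where 25.9% of all genes were lower and 21.7% higher. The 9 were PRPS1, GART, PAICS, ADSL, IMPDH2, DUT, SAMHD1, MTHFD1 and TK1, and the 1 was SLC29A1. By adjusted p, 4 members (PRPS1, GART, DUT and SAMHD1) fell in C4-2 and rose in LNCaP-labelled libraries. Among all genes tested, 25.6% fell with the combination in C4-2 and 28.0% rose with it in LNCaP-labelled libraries. The share of all genes that did both was not counted. The largest differences were those of DUT, at -2.06 ± 0.14 (adjusted p = 4.1e-11), SAMHD1, at -2.05 ± 0.13 (adjusted p = 2.5e-11), and IMPDH2, at -1.68 ± 0.13 (adjusted p = 3.5e-10). For SLC29A1 the difference was 1.68 ± 0.15 (adjusted p = 4.6e-09). RRM2, which fell in LNCaP-labelled libraries, differed by 0.97 ± 0.22 (adjusted p = 0.00069), short of 2-fold, and its value ran from 0.66 without C4-2 R1881 replicate 2 to 1.41 without C4-2 R1881 replicate 1. Without LNCaP combination replicate 1 the count was 12, with CMPK1 and ADK added. After the GC correction it was 11: GART and PAICS were no longer called, and PFAS, RRM2 and APRT were.

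**Figure D4:**
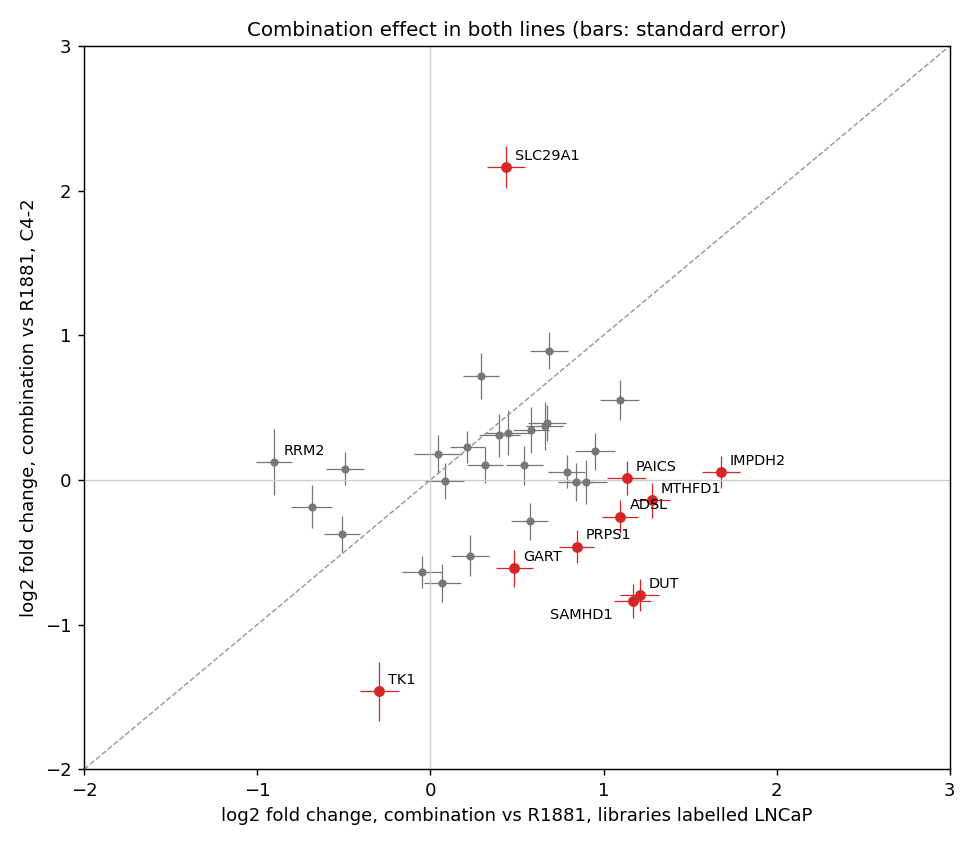
Log2 fold change of each of the 35 members with the combination against R1881 in LNCaP-labelled libraries (horizontal axis) and in C4-2 (vertical axis), with bars for the standard error and a dashed line where both are equal. The 10 members in red differed between the lines by at least 2-fold with an adjusted p under 0.05, and 9 of them lie below the line.

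With R1881 alone, C4-2 was called lower than the LNCaP-labelled libraries for 12 members and higher for 3, where 50.5% of all genes were called, 26.2% lower and 24.3% higher. The share of members called, 42.9%, was thus below that of all genes. At adjusted p alone, 20 were lower and 9 higher, where 39.0% of all genes were lower and 37.8% higher. The genes farthest below were RRM2, at -3.85 ± 0.16 on the log2 scale, SLC29A1, at -3.01 ± 0.12, TYMS, at -2.96 ± 0.11, HPRT1, at -2.40 ± 0.12, and CTPS1, at -2.13 ± 0.09. Those higher in C4-2 were CMPK1, at 1.55 ± 0.09, ADK, at 1.40 ± 0.10, and IMPDH1, at 1.23 ± 0.09. All 19 S-phase genes were called lower in C4-2, with a median of -2.84, and the marker differences given above apply to this comparison too. Per kilobase of exon, the most abundant members in C4-2 with R1881 alone were IMPDH2 at 72.03, CMPK1 at 58.00 and APRT at 46.2 CPM per kb, and the least were SLC29A1 at 2.01, DHODH at 2.86 and RRM2 at 2.87. In LNCaP-labelled libraries the order began with HPRT1 at 65.7, RRM1 at 58.2 and PRPS2 at 56.2 CPM per kb, and DHODH was again near the bottom at 2.84.

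Promoter words were read for the 32 members with an entry in the RefSeq table of GRCh38.p14 (250 bases before to 50 after each annotated start). ADSL, IMPDH2 and SLC29A2 had none. Both strands were searched, each gene was counted once for any of its windows, and genes with several windows have more sequence. The E-box CACGTG stood in 9 of 32 members (28.1%) and in 8.77% of 27305 genes with a window. These 27305 genes include genes with too few counts to be tested here, whereas every member was tested, so the shares are not of like sets. The 9 were PPAT, PAICS, ATIC, DHODH, NME1, DCTPP1, MTHFD1, DCK and SLC29A1, and in PPAT and PAICS the word lay outside the stretch between their starts. An E2F word (TTTCCCGC, TTTCGCGC, TTTGCCGC or TTTGGCGC) stood in 5 members (15.6%), namely PRPS2, GART, TYMS, DUT and DCK, and in 3.99% of all genes. CCAAT stood in 14 members (43.8%) and in 39.7% of all genes, and TGATGNAA, a word of ATF4-type factors, in 0 members and in 4.46% of all genes. The members called with namoline were spread over windows with and without these words: PAICS, DCTPP1, MTHFD1 and SLC29A1 held an E-box, TYMS an E2F word, RRM1, RRM2, MTHFD1 and TK1 a CCAAT (in TK1 outside the stretch shown), and CTPS1 and HPRT1 none of them. A match is a description of the letters and does not show a bound site. The 250 bases before the start of RRM1 (chr11:4094435-4094684, GRCh38, plus strand, RefSeq) are shown as the partner subunit that stayed high with the combination, with CCAAT in capitals.
RRM1: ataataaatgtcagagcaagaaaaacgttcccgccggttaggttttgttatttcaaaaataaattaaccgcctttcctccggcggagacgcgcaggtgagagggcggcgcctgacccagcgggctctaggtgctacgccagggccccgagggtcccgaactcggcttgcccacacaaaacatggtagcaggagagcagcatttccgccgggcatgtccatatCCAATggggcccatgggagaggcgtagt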

How the data were processed

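RNA captured by polyA was sequenced in 12 libraries. Per the labels and file headers, the authors trimmed reads with Trim Galore and cutadapt, aligned them with STAR to GRCh38 and counted read pairs per gene with featureCounts v1.5.0-p1 on Ensembl annotation 83, without strand. The deposited files hold raw counts per gene. The versions of the other tools are not given in the sources used here. Library totals were 14791602 to 20690819 counts.

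Counts were analysed in R 4.3.3 with edgeR 4.0.16: genes with low counts were removed with filterByExpr, libraries were scaled by TMM (trimmed mean of M values) and groups were compared with the quasi-likelihood test. The 8 C4-2 libraries were fitted together, the 4 libraries labelled LNCaP on their own, and comparisons between lines on the 8 libraries with R1881 or the combination. Calls needed a Benjamini-Hochberg adjusted p under 0.05 over all genes tested and a change of at least 2-fold. CPM values were computed from the counts with TMM factors, fold changes carry a standard error (SE) derived from the test statistic, and CPM per kb divides by exon length. The scripts were tested on simulated data. Members are those of the module, and values in every library are given for the 28 members called in a comparison against R1881 or in the interaction. From the other lists, at most 6 genes per comparison were named, by size of change among those called with at least 10 CPM. A gene selected by this rule is not reported here. The members and lists were chosen with earlier results of these data known. Samples were grouped by their titles, because the treatment text in the labels describes RNA interference. The labels and the study's methods give different doses of TCE-5002, so no dose is stated. Deviations of libraries with equal replicate numbers had correlations between -0.064 and 0.074 across genes between groups, which does not exclude a shared shift. Replicate 1 less replicate 2 followed GC content with the same sign in each C4-2 group. Spearman's rho was -0.29 with R1881 alone, -0.50 with TCE-5002, -0.25 with namoline and -0.11 with the combination. In LNCaP-labelled libraries rho was 0.097 with R1881 and 0.34 with the combination. Alternatives were other scaling (RLE), no filter, the likelihood ratio test, DESeq2 1.42.0, adjusted p alone, a replicate block, a GC offset, fits of 4 libraries and leaving out each library.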

Additional observations from a re-analysis of the deposited data

Results flagged for a closer look

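With 2 libraries in each group no test for a single distant library was possible. The combination effect, as log2 fold change against R1881, differed between C4-2 and the libraries labelled LNCaP for 10 of the 35 members by edgeR's interaction test, or 28.6%, where 25.3% of all genes were called. It was lower in C4-2 by -1.36 for PRPS1, -1.15 for GART, -1.17 for PAICS, -1.40 for ADSL, -1.68 for IMPDH2, -2.06 for DUT, -2.05 for SAMHD1, -1.47 for MTHFD1 and -1.22 for TK1, and higher by 1.68 for SLC29A1. The labels of these libraries and the markers described above touch every one of these values, and their part in the differences was not tested.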

How the results depend on the processing

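Counts of members called stayed within 1.5 times their reported value under other scaling, no filter, the likelihood ratio test, DESeq2 and fits of only the 4 libraries compared. With adjusted p alone as the rule the counts were 28 (namoline), 24 (TCE-5002), 14 (combination), 30 and 26 (combination against namoline and against TCE-5002), 29 (libraries labelled LNCaP), 25 (line difference) and 29 (C4-2 against LNCaP with R1881). With a GC offset, and with a GC offset and a replicate block, the count for the combination against TCE-5002 was 5 in place of 8. Leaving out each library in turn gave 9 to 12 for namoline, 3 to 7 for TCE-5002, 2 to 2 for the combination, 12 to 13 and 7 to 10 for the combination against namoline and against TCE-5002, 21 to 25 for the interaction, 6 to 8 in the libraries labelled LNCaP, 10 to 12 for the line difference and 14 to 15 for the baseline. The 7 for TCE-5002 arose without C4-2 R1881 replicate 1 and without C4-2 TCE-5002 replicate 2. For single-gene values with an adjusted p under 0.05, the sign changed in 2 of 3827 alternative values. Both were TK1 under both inhibitors in the LNCaP-labelled libraries, from -0.29 to 0.12 with the GC offset and 0.12 with the GC offset and replicate block. For values that missed that threshold the sign changed in 65 of 1283. Both totals include the setting of adjusted p alone, which keeps the reported fold changes and so could not change a sign. With a replicate block alone the counts were 11 for namoline, 4 for TCE-5002, 2 for the combination, 23 for the interaction and 7 in the libraries labelled LNCaP. By adjusted p alone the block gave 30, 28, 19, 33 and 28 members in the same order. Without it these were 28, 24, 14, 32 and 29. Whether equal replicate numbers share a technical shift was not settled, so the block is only a second setting. With 2 libraries a group, a change under 2-fold that misses the threshold is not shown to be absent, and GC content differed between libraries of a group.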
